A study of Mus musculus with 12 samples.

Results

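A set of 10 genes of arginine metabolism was followed in RNA-Seq data of RAW 264.7 cells, a mouse macrophage line. They were chosen by name as the enzymes that split or oxidise arginine and their partners: Arg1, Arg2, Nos2, Slc7a2, Ass1, Asl, Odc1, Srm, Sms and Gch1, 10 of the 35944 genes to which the deposited transcripts could be summed. For 48 h the cells had received 3 µg protein/ml of extracellular vesicles (EVs), which came from the mouse endothelial line MS-1. All EVs had been electroporated with a pre-miRNA mimic, which was a control mimic in ctrl-EVs and pre-miR-142-5p, pre-miR-183-5p or pre-miR-222-3p in the EVs named after each of them (such as miR-142-5p-EVs), together called miR-EVs. Each of the 4 groups had 3 libraries of polyadenylated RNA, numbered 1 to 3 in their titles, and cells without EVs were not analysed here. The labels do not say what a title number stands for or that libraries came from separate cultures, so p-values measure only the spread between these libraries, which may be technical. The comparisons ask whether EV-delivered miRNAs shift arginine use between the arginase and nitric oxide branches, which are classical readouts of M2 and M1 macrophage polarization.

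Arginine stands at a branch point in macrophages. Inducible nitric oxide synthase (iNOS, encoded by Nos2) oxidises it to nitric oxide and citrulline, with tetrahydrobiopterin as a cofactor whose synthesis starts with Gch1. Arginase, cytosolic as Arg1 and mitochondrial as Arg2, hydrolyses it to urea and ornithine, which Odc1, Srm and Sms turn into the polyamines putrescine, spermidine and spermine. Ass1 and Asl rebuild arginine from citrulline, and Slc7a2 (CAT2) is the cationic amino acid transporter that accompanies Nos2 or Arg1 in activated macrophages. Inflammatory stimuli such as lipopolysaccharide and interferon gamma are known to induce Nos2, and interleukin-4 is known to induce Arg1.

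The mature mouse forms of the miRNAs are shown as RefSeq annotates them, which need not match the ends of the synthetic mimics, because a miRNA finds its targets mainly through its seed, nucleotides 2 to 8, which is in capitals. They were taken from RefSeq on GRCm38.p6, at chr11:87756867-87756887 on the plus strand for miR-142-5p, chr6:30169711-30169732 on the minus strand for miR-183-5p and chrX:19146901-19146923 on the minus strand for miR-222-3p. The 3 seeds differ from each other.
mmu-miR-142a-5p: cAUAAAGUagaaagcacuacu
mmu-miR-183-5p: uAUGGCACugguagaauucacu
mmu-miR-222-3p: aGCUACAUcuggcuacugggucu

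A 7-nt stretch complementary to a seed was then searched on the sense strand in the 3′ UTR of each gene's most abundant transcript. Abundance was taken per transcript length and averaged over the libraries. The letters were ACTTTAT for miR-142-5p, GTGCCAT for miR-183-5p and ATGTAGC for miR-222-3p, and no match overlapped another. Among the 8 members that could be tested, all with an annotated 3′ UTR, Gch1 held 1 match to the miR-142-5p seed and Slc7a2 held 2 matches to that of miR-222-3p, and no member held one for miR-183-5p. Of 11384 tested genes with a 3′ UTR, 13.9% held ACTTTAT, 9.09% GTGCCAT and 9.28% ATGTAGC. The Slc7a2 3′ UTR is 5774 nt long, against 270 to 650 nt for Arg2, Nos2, Asl, Odc1, Srm and Sms and 1903 nt for Gch1. The most abundant listed transcripts of Arg1 and Ass1 have no annotated 3′ UTR, so neither gene was searched. The matches, in capitals, are shown with the bases around them because they are the only ones in the searched transcripts of these 8 genes. Other transcripts were not searched and may hold further matches. For Sms, an unsearched transcript of 3717 nt had 8802 counts, against 8064 for the searched one of 1540 nt. They are written as DNA in the sense of the GENCODE vM21 transcript, on GRCm38, at chr14:47155693-47155699 (minus strand), chr8:40917777-40917783 and chr8:40920986-40920992 (plus strand). A match describes the sequence and is not evidence of binding.
Gch1: tacacttgtgaACTTTATgtctcatcatg
Slc7a2, nearer the stop codon: aggttctttctATGTAGCcctggaactca
Slc7a2, farther from the stop codon: tgctgaaattcATGTAGCcagtaatgcca

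The libraries held 16294611 to 22974853 estimated counts, so 3 counts, taken as the detection floor, amounted to 0.131 to 0.184 CPM, counts scaled to a common library total. All 9 macrophage markers examined (such as Adgre1, Cd68 and Csf1r) reached 1 TPM, the Salmon abundance scaled by transcript length and library total, and their summed level was 16120 to 17400 normalised counts (depth- and length-corrected counts of DESeq2) in the 4 libraries numbered 2 and 20500 to 24022 in the other 8. Of 8 endothelial markers, 3 reached 1 TPM in any library (Pecam1, Vwf and Cdh5), Cldn5 was at 0 in every library and Kdr and Emcn never exceeded 3 counts; the summed endothelial level was 190 to 234 normalised counts in number 2, 205 to 252 in number 1 and 321 to 406 in number 3. Libraries with the same number deviated together from their group means, and 69.4% of all genes tested differed between numbers. The libraries numbered 2 stood apart most, which shifted TPM too: a typical gene was 0.22 lower in log2 TPM in number 2 than in the other numbers, against 0.01 higher in normalised counts. TPM is therefore used below to compare genes with each other, and normalised counts to compare libraries.

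The polyamine enzymes were the most abundant members, and the arginine-handling enzymes that give macrophage activation its textbook markers were among the least. Odc1, the ornithine decarboxylase that commits ornithine to polyamines, averaged 151 ± 25.2 TPM (SD, n = 12), and Srm, spermidine synthase, averaged 134 ± 19.6 TPM. These 2 could not be ordered, since Odc1 was above Srm in 8 of 12 libraries. Sms, spermine synthase, followed at 58.3 ± 3.77 TPM, Asl, argininosuccinate lyase, at 33.1 ± 7.16 TPM and Gch1, GTP cyclohydrolase, at 14.8 ± 2.76 TPM. Each of these was below its upper neighbour in 12 of 12 libraries with no overlap of the ranges. Arg2 averaged 3.26 ± 0.77 TPM and Nos2 1.47 ± 1.36 TPM, and Arg2 was the higher in 11 of 12 libraries. Arg1 averaged 0.58 ± 0.43 TPM, below Nos2 in 8 of 12 libraries, and Slc7a2 0.142 ± 0.059 TPM. Ass1 was listed at 0 in 5 of 12 libraries and had at most 2 counts. From Arg2 downwards each range overlapped that of the next gene.

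**Figure D1:**
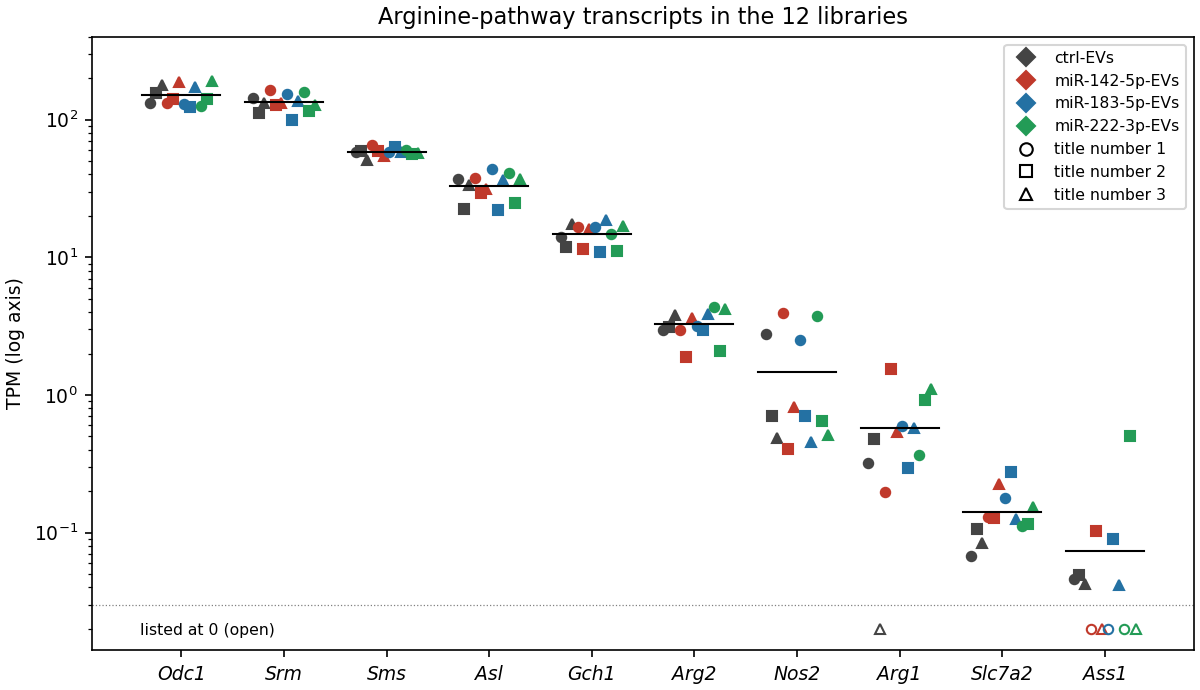
TPM of the 10 genes in each of the 12 libraries on a log axis, ordered by mean, with colour for the EV group, marker shape for the title number and a black line at the mean; open symbols at the bottom are libraries in which a gene was listed at 0. Odc1 and Srm overlap above 99 TPM, and the Nos2 points of number 1 lie above those of numbers 2 and 3.

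Arg1 was at the edge of detection. The gene, at chr10:24915221-24927484 on the minus strand, had 74 estimated counts in all 12 libraries together. The counts for numbers 1, 2 and 3 were 6, 6 and 0 in ctrl-EVs, 4, 10 and 6 in miR-142-5p-EVs, 8, 4 and 6 in miR-183-5p-EVs, and 6, 10 and 8 in miR-222-3p-EVs. One control library was therefore at 0 and the other 11 libraries were above the floor of 3 counts, and every miR-EV group overlapped ctrl-EVs. Summed over the 3 libraries of a group, Arg1 stood at 0.210 CPM in ctrl-EVs (exact 95% Poisson interval 0.108 to 0.366), 0.350 CPM in miR-142-5p-EVs (0.214 to 0.541), 0.280 CPM in miR-183-5p-EVs (0.166 to 0.443) and 0.405 CPM in miR-222-3p-EVs (0.259 to 0.602). The intervals cover counting error only, and all of them overlap. All 12 counts were even, and whether they are independent, as these intervals assume, was not tested. Arg1 reached 10 counts in 2 libraries and so missed the filter of 10 counts in 3 libraries. Fitted without the filter, its log2 fold change was 1.40 ± 1.01 (SE) under miR-142-5p-EVs, 0.79 ± 1.02 under miR-183-5p-EVs and 1.5 ± 1.01 under miR-222-3p-EVs, each with an adjusted p of 1.0 (DESeq2). With 9 libraries against 3 it was 1.24 ± 0.76, with a 95% interval of −0.26 to 2.74. No difference in Arg1 was therefore detected at these low counts, and this interval spans both no difference and a several-fold one.

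Arg2 was the main arginase transcript. The gene lies at chr12:79130777-79156301 on the plus strand and overlaps Vti1b on the opposite strand. It had 30 to 86 counts per library and passed the filter. Its normalised counts for numbers 1, 2 and 3 were 53.1, 60.8 and 71.1 in ctrl-EVs, 51.7, 37.9 and 59.1 in miR-142-5p-EVs, 56, 62.3 and 63.1 in miR-183-5p-EVs, and 78.7, 42.4 and 68.7 in miR-222-3p-EVs. The lowest values were those of number 2 with miR-222-3p-EVs and miR-142-5p-EVs, and the groups overlapped throughout. Of the single Arg2 transcript listed, 18.2% of all 31-base words also occur, in reverse orientation, in Vti1b transcripts, which had 10799 counts in all against 721 for Arg2. The library kit marks strand, but whether strand was used in counting is not given in the sources used here. Arg2 values are therefore uncertain by an amount that was not estimated and that the share of words does not bound. The same holds for the balance of the arginases and the ratio of Nos2 to Arg2 given below.

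The balance of the arginases was expressed as the share of Arg1 in arginase TPM. In ctrl-EVs the share was 9.80%, 13.3% and 0%, and in miR-142-5p-EVs it was 6.18%, 45.0% and 13.0%. In miR-183-5p-EVs it was 15.8%, 9.0% and 12.8%, and in miR-222-3p-EVs 7.79%, 30.8% and 20.6%. Arg2 thus supplied more than Arg1 in 12 of 12 libraries. The mean share was 7.70% ± 6.89 (SD, n = 3) in ctrl-EVs against 21.4% ± 20.7 in miR-142-5p-EVs, 12.5% ± 3.41 in miR-183-5p-EVs and 19.7% ± 11.5 in miR-222-3p-EVs. The differences were 13.7, 4.85 and 12.0 percentage points with two-sided exact permutation p of 0.50, 0.50 and 0.30, and the share was higher than in the control of the same number for 2 of 3 numbers in each group. All 9 miR-EV libraries averaged 17.9% ± 12.7, which was 10.2 points above the control (exact permutation p = 0.21). All 4 adjusted p-values (Benjamini-Hochberg) were 0.50 in these exact permutation tests. Tests of 3 against 3 libraries cannot go below 0.10. Between title numbers the share averaged 9.89%, 24.5% and 11.6% for numbers 1, 2 and 3 (exact permutation p = 0.22 over the 1296 orders of the numbers within groups). Salmon spread the few Arg1 counts over 3 transcripts, of which a 702-nt one took up to 79.6% of the Arg1 TPM in a library against 1477 nt for the longest. The share from counts, which this does not touch, was 25% in miR-142-5p-EVs number 2. From counts the differences from ctrl-EVs shrank to 6.64, 1.48 and 5.91 points in the single groups and 4.68 points over all (exact permutation p = 0.60, 0.80, 0.60 and 0.35).

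**Figure D2:**
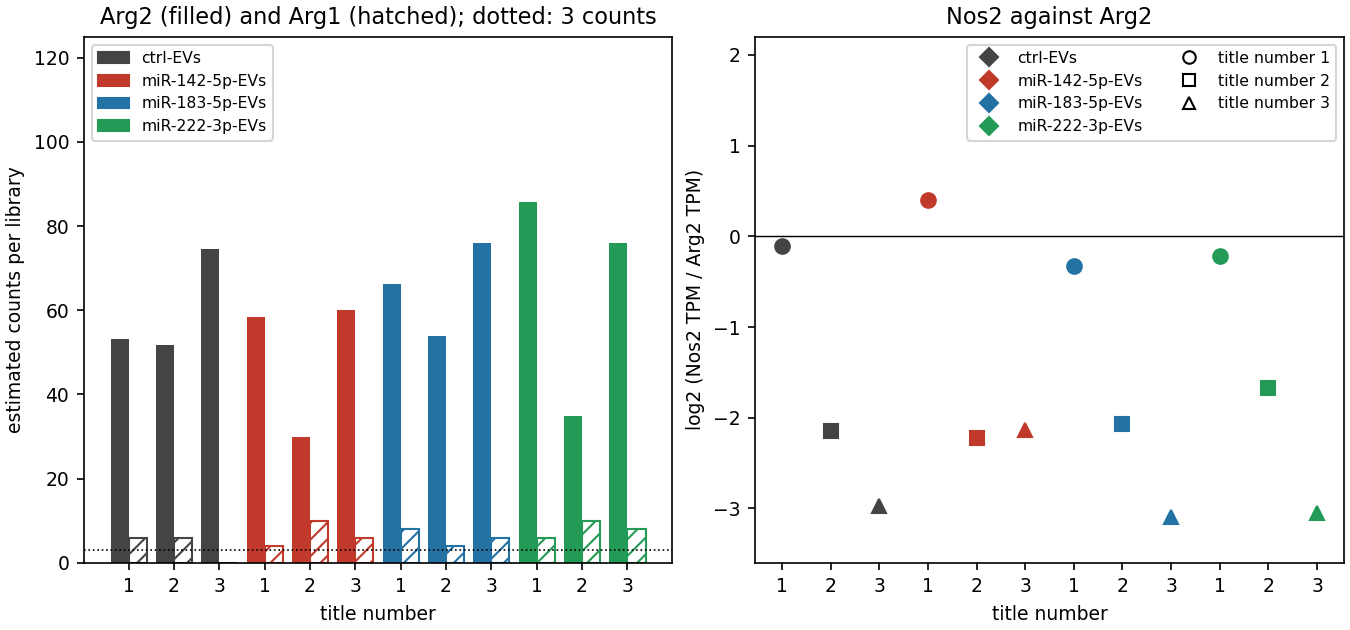
Left, estimated counts per library for Arg2 (filled bars) and Arg1 (hatched bars), with a dotted line at the floor of 3 counts; right, log2 ratio of Nos2 to Arg2 TPM, both ordered by EV group and title number. Arg1 stays at 10 counts or fewer and below Arg2 everywhere, and the ratio lies between −0.33 and 0.40 in number 1 and below −1.6 in numbers 2 and 3.

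Nos2 differed between title numbers, and no difference between EV groups was called. The gene is at chr11:78920787-78960254 on the plus strand. Its normalised counts in number 1 were 146 in ctrl-EVs, 204 in miR-142-5p-EVs, 133 in miR-183-5p-EVs and 200 in miR-222-3p-EVs. In number 2 they were 40.5, 24.1, 44.1 and 39.6 in the same order of groups, and in number 3 they were 26.8, 40.0, 21.8 and 24.6. Number 1 was thus above both other numbers in every group with no overlap, whereas numbers 2 and 3 overlapped. In bulk RNA, more cells with Nos2 and more Nos2 RNA per cell cannot be told apart. Nos2 was 6.08-fold lower in number 3 than in number 1 (log2 fold change −2.61 ± 0.27, SE, adjusted p = 4.81e-19, DESeq2), and lower in number 2 than in the mean of numbers 1 and 3 (−0.87 ± 0.25, adjusted p = 0.0012, DESeq2). Between numbers 1 and 3 only 54 of the 13923 genes tested had a larger absolute log2 fold change. The Nos2 call between numbers 3 and 1 held in all 12 fits that left out one library, with a log2 fold change of −2.82 to −2.49.

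Against ctrl-EVs Nos2 differed by a log2 fold change of 0.34 ± 0.98 (SE) for miR-142-5p, −0.10 ± 0.98 for miR-183-5p and 0.31 ± 0.98 for miR-222-3p, with an adjusted p of 1.0 each (DESeq2). With the title number as a block the errors fell to 0.32 and the differences to 0.20, −0.09 and 0.14, and the 95% interval over all 9 miR-EV libraries was −0.40 to 0.57. Nos2 was above the control of its own number in 4 of 9 libraries. In the control library numbered 1 Salmon assigned part of the Nos2 counts to shorter transcripts. Of 102 counts in that library 78.5 went to the 4192-nt main transcript, 16.6 to one of 3429 nt and 6.87 to one of 648 nt, whereas in the number 1 libraries of miR-222-3p-EVs and miR-142-5p-EVs all their counts went to the main one. Without the length correction the differences were 0.72, 0.34 and 0.68, none of them called. Leaving out that control library gave 1.41, 0.98 and 1.39, and leaving out the miR-EV library numbered 1 turned the differences to −1.15, −1.11 and −1.15, none of them called. The unblocked difference thus follows whichever number 1 library is missing.

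The ratio of Nos2 to Arg2 TPM sets both branches side by side. It was 0.93, 0.23 and 0.13 for numbers 1, 2 and 3 in ctrl-EVs, 1.32, 0.21 and 0.23 in miR-142-5p-EVs, 0.80, 0.24 and 0.12 in miR-183-5p-EVs, and 0.86, 0.31 and 0.12 in miR-222-3p-EVs. Only miR-142-5p-EVs number 1 held more Nos2 than Arg2. On the log2 scale the mean was −0.06 ± 0.32 (SD, n = 4) in number 1, −2.03 ± 0.25 in number 2 and −2.81 ± 0.45 in number 3, a difference between numbers with an exact permutation p of 0.0093 where 0.0046 is the smallest possible. Against ctrl-EVs (−1.74 ± 1.47, n = 3) the log2 ratio differed by 0.42 for miR-142-5p, −0.09 for miR-183-5p and 0.10 for miR-222-3p (exact permutation p = 0.60, 0.80 and 1.0, adjusted p = 1.0 each). None of these differences exceeded the spread within a group, but that spread includes the differences between title numbers. Within the same number the ratio was above the control for 2, 1 and 1 of 3 numbers in the same order of groups. With counts in place of TPM it was above for 2, 3 and 3 of 3 numbers (exact sign-flip p = 0.50, 0.25 and 0.25, where 0.25 is the smallest possible).

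No member was called in any comparison of miR-EVs with ctrl-EVs. Of the 8 members tested, 0 were called with miR-142-5p-EVs beside 0.00719% of all genes, 0 with miR-183-5p-EVs beside 0.0%, 0 with miR-222-3p-EVs beside 0.0%, and 0 with all miR-EVs together beside 0.0% (DESeq2, adjusted p under 0.05). At an unadjusted p under 0.05 the counts were 0, 1, 0 and 1 members, Slc7a2 in both cases, and 73, 138, 100 and 232 of all genes. The edgeR quasi-likelihood test also called 0 members. With the title number as a block 0.0575%, 0.287%, 0.0359% and 1.18% of all genes were called in the same order of comparisons, and still 0 of 8 members, with 0, 2, 0 and 1 of them at an unadjusted p under 0.05. The median absolute log2 fold change of the 8 members was 0.08, 0.09 and 0.07 in the 3 single comparisons, beside 0.12, 0.14 and 0.12 over all genes tested. These comparisons share the control libraries.

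**Figure D3:**
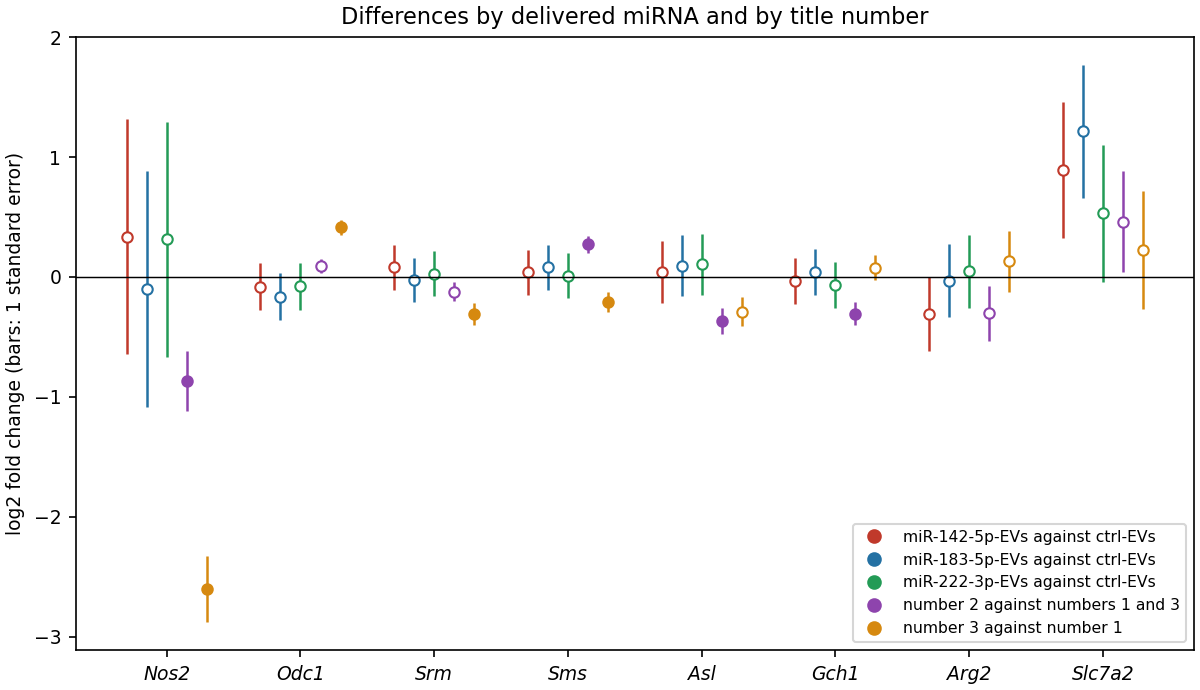
Log2 fold change of the 8 tested genes with bars of 1 standard error, for 3 EV comparisons with ctrl-EVs and 2 contrasts between title numbers; filled points had an adjusted p under 0.05 (DESeq2). No EV comparison has a filled point, and Nos2 in number 3 against number 1 lies farthest from 0 at −2.61.

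Slc7a2 had the largest differences from ctrl-EVs among the members tested, at very low counts. The gene lies at chr8:40862396-40922308 on the plus strand and had 7 to 32 counts per library. Its normalised counts for numbers 1, 2 and 3 were 7.12, 12.4 and 9.29 in ctrl-EVs, 13.9, 16.0 and 23 in miR-142-5p-EVs, 19.1, 36.0 and 12.1 in miR-183-5p-EVs, and 12.1, 14.2 and 15 in miR-222-3p-EVs. It was above the control of the same number in 9 of 9 libraries. In normalised counts only miR-142-5p-EVs did not overlap ctrl-EVs, with closest values of 13.9 and 12.4. The lowest value of miR-183-5p-EVs and of miR-222-3p-EVs was 12.1, below the highest control value of 12.4. In CPM, which has neither the length correction nor the depth factors of DESeq2, the 9 libraries lay just above the 3 controls. They stood at 0.622 to 1.67 CPM against 0.377 to 0.596 CPM, but libraries are compared here in normalised counts, where the ranges overlap. The 9 libraries are set against the same 3 controls, and how many of all genes show such patterns was not counted. Summed over a group, Slc7a2 stood at 0.489 CPM in ctrl-EVs (exact 95% Poisson interval 0.325 to 0.707), 0.911 CPM in miR-142-5p-EVs (0.680 to 1.19), 1.06 CPM in miR-183-5p-EVs (0.822 to 1.34) and 0.725 CPM in miR-222-3p-EVs (0.525 to 0.977). On counting error alone, which leaves out the spread between libraries, the intervals of miR-183-5p-EVs and ctrl-EVs do not overlap. The log2 fold change was 0.89 ± 0.56 (SE) for miR-142-5p, 1.22 ± 0.56 for miR-183-5p and 0.53 ± 0.57 for miR-222-3p, and 0.91 ± 0.46 over all miR-EVs, with unadjusted p of 0.11, 0.029, 0.35 and 0.047 and adjusted p of 1.0 throughout (DESeq2). With the block the adjusted p over all miR-EVs was 0.35. Without one library the log2 fold change was 0.65 to 1.1 for miR-142-5p, 0.71 to 1.52 for miR-183-5p (0.71 without its number 2) and 0.35 to 0.74 for miR-222-3p (0.35 without control number 1), so the order of the 3 groups is not settled. The difference fails the correction for multiple tests.

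Odc1 followed the title number. It lies at chr12:17544794-17551505 on the plus strand. Normalised counts were 3449 to 3599 in number 1, 3996 to 4601 in number 2 and 4307 to 5051 in number 3, so that number 1 lay below the others without overlap. Odc1 was 1.33-fold higher in number 3 than in number 1 (log2 fold change 0.41 ± 0.07, SE, adjusted p = 1.85e-08, DESeq2). Number 2 differed from the mean of the others by 0.09 ± 0.06, which was not called, and in TPM the sign turned to −0.13. Odc1 was below the control of the same number in 9 of 9 miR-EV libraries. In the blocked fit the log2 fold change was −0.08, −0.15 and −0.08 with an SE of 0.08 each. For miR-183-5p the unadjusted p was 0.045 (adjusted p = 0.48, DESeq2). Over all miR-EVs it was −0.10 ± 0.05 (unadjusted p = 0.059, adjusted p = 0.39, DESeq2). None was called, and the 4 comparisons share the control libraries. How many of all genes lay on the same side of the control in 9 of 9 libraries was not counted.

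The spermidine and spermine synthases also differed between title numbers. Srm, at chr4:148591503-148594993 on the plus strand, had normalised counts of 2055 to 2301 in number 1, 1668 to 2030 in number 2 and 1653 to 1948 in number 3, and was lower in number 3 than in number 1 (log2 fold change −0.31 ± 0.09, adjusted p = 0.0055, DESeq2). That call was lost without miR-142-5p-EVs number 3 (adjusted p = 0.073), miR-222-3p-EVs number 1 (0.069) or miR-222-3p-EVs number 3 (0.085). Sms, at chrX:157443855-157492287 on the minus strand, had 1523 to 1692, 1703 to 1976 and 1318 to 1410 normalised counts in numbers 1, 2 and 3, with no overlap. It was higher in number 2 than in the others (0.27 ± 0.07, adjusted p = 3.8e-04) and lower in number 3 than in number 1 (−0.21 ± 0.08, adjusted p = 0.0497, DESeq2), a call at the threshold that was lost in 9 of 12 fits without one library. In TPM the difference of number 2 shrank to 0.05. Against ctrl-EVs the log2 fold changes of both genes lay between −0.03 and 0.08 with an SE of 0.19.

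Sms counts are also uncertain because of a processed pseudogene. Of all 31-base words in Sms transcripts 17.8% occur in Sms-ps, also on chromosome X, to which 9197 counts were assigned against 19037 for Sms. With the 2 genes summed, an alternative chosen after the data were seen, number 2 remained higher (0.30 ± 0.07, adjusted p = 7.44e-05) but number 3 against number 1 was not called (−0.19 ± 0.08, adjusted p = 0.070, DESeq2). For Odc1, 20 genes share at least 1% of its words in the same orientation, and their counts came to 4.68% of its own. In reverse orientation AW146154 shares 11.4% of the words and had 3071 counts, 6.07% of those of Odc1, with the same uncertainty about strand as for Arg2. The copies of Srm had 0 counts, and Gm5424, which shares 43.1% of the words of Ass1, had 1 count.

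The 2 steps that rebuild arginine from citrulline were far apart. Ass1, argininosuccinate synthase, at chr2:31470207-31520672 on the plus strand, had 10 counts in all libraries together, or 0.042 CPM (exact 95% Poisson interval 0.020 to 0.077). It was at or below the floor of 3 counts in 12 of 12 libraries, so no fold change is given. Asl, at chr5:130011258-130029247 on the minus strand, had 348 to 927 counts per library. Its normalised counts were 649 to 765 in number 1, 425 to 584 in number 2 and 510 to 608 in number 3, so that number 1 was above the others without overlap. Asl was lower in number 2 than in the other numbers (log2 fold change −0.37 ± 0.11, adjusted p = 0.0013, DESeq2), and the difference of number 3 from number 1 was not called (−0.29 ± 0.12, adjusted p = 0.065, DESeq2). Its counts were spread over 8 transcripts, of which the one of 1824 nt took 26.8% to 66.3% of Asl TPM. Against ctrl-EVs Asl differed by 0.04 to 0.10 with an SE of 0.26.

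Gch1, at chr14:47153895-47189413 on the minus strand, stood at 487 to 495 normalised counts in the libraries numbered 2, 541 to 630 in number 1 and 567 to 693 in number 3. It was lower in number 2 than in the others (log2 fold change −0.31 ± 0.09, adjusted p = 0.0022, DESeq2) and not called between numbers 3 and 1 (0.08 ± 0.10). With miR-142-5p-EVs, whose miRNA has the seed match printed above, Gch1 differed from ctrl-EVs by −0.03 ± 0.19, and the 95% interval in the blocked fit was −0.27 to 0.21.

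**Figure D4:**
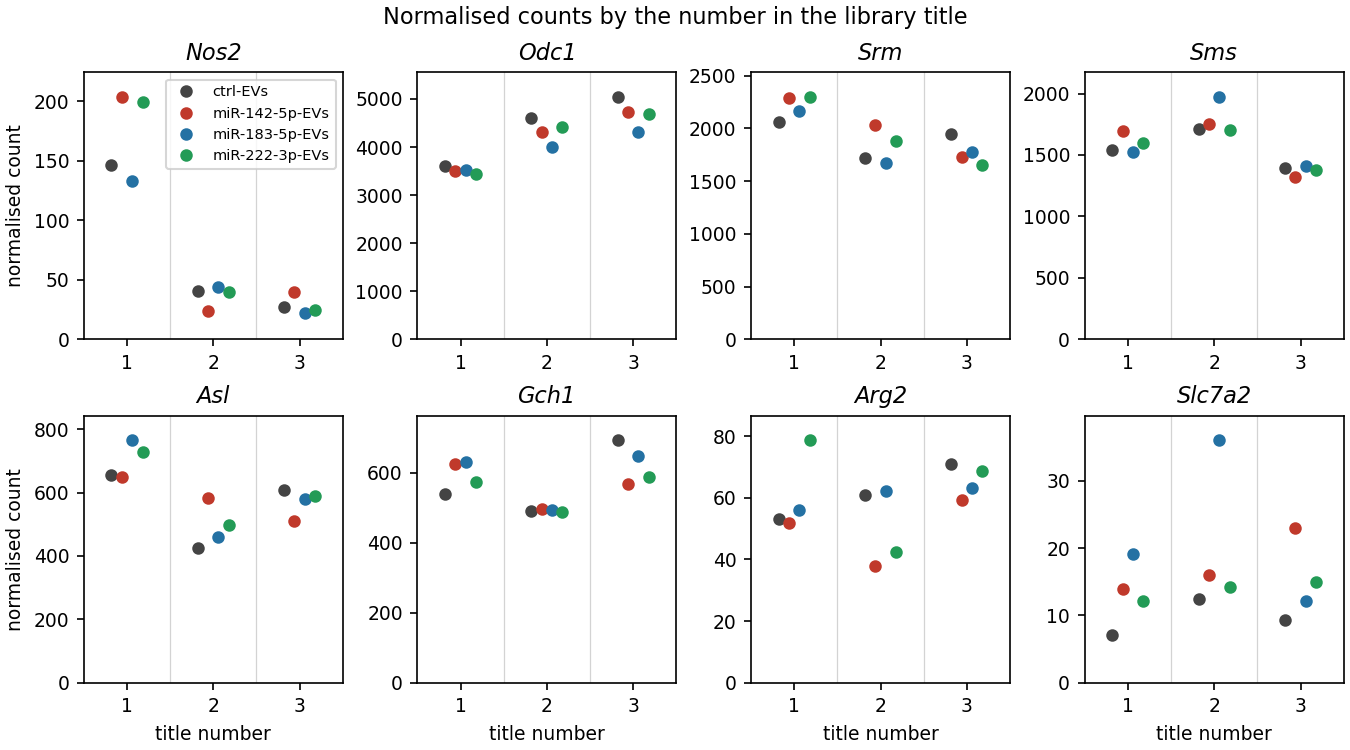
Normalised counts of the 8 tested genes by title number, with 1 point per library, colour for the EV group and axes from 0. Nos2 separates number 1 (133 to 204) from numbers 2 and 3 (21.8 to 44.1) in all 4 groups, Odc1 has its lowest 4 values in number 1, and Gch1 its lowest 4 in number 2.

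Between title numbers 6 of 8 members were called by the likelihood ratio test, beside 69.4% of all genes, all but Arg2 (adjusted p = 0.42) and Slc7a2 (0.54, DESeq2). Number 2 differed from numbers 1 and 3 for 4 of 8 members, beside 64.1% of all genes, and number 3 from number 1 for 4 of 8, beside 23.4%. The first 2 shares are near the background or below it, and the last rests on 8 genes. The median absolute log2 fold change of the members was 0.30 for number 2, beside 0.46 over all genes, and 0.26 for number 3 against number 1, beside 0.21. The macrophage marker sum in normalised counts was lowest in number 2 and the endothelial one highest in number 3, as given above, and their part in these differences was not tested.

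The remaining genes of the pathway were counted over 7 lists with 64 names, of which 55 could be tested. None was called in any comparison of miR-EVs with ctrl-EVs, with or without the block. Number 2 differed from the others for 43 of the 55 (17 higher, 26 lower), or 78.2% beside 64.1% of all genes, and number 3 from number 1 for 15 (4 higher, 11 lower), or 27.3% beside 23.4%. The counts of the single lists, given next, stand against the same shares of all genes, and nothing is read from them about a list. In the list of other arginine-using and ureagenesis enzymes 4 genes were tested. Of these 2 were called for number 2 (2 higher), beside 64.1% of all genes. Between numbers 3 and 1 the count was 3 of 4 (3 lower), beside 23.4%. All 5 genes of this list that missed the filter (Agmat, Padi4, Otc, Cps1 and Nags) had at most 8 counts in any library.

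Among the other arginine carriers all 6 tested were called for number 2, 4 of them lower, and 0 between numbers 3 and 1, beside 64.1% and 23.4% of all genes. Slc7a1 (CAT1), the constitutive cationic amino acid transporter, averaged 52.0 ± 18 TPM against 0.142 TPM for Slc7a2. It was lower in number 2 (log2 fold change −0.82 ± 0.08, adjusted p = 4.83e-23, DESeq2). The exchanger subunits Slc7a7 (−1.62 ± 0.13) and Slc3a2 (−0.62 ± 0.06) were also lower in number 2, and Slc7a6 (0.36 ± 0.09) and the lysosomal arginine sensor Slc38a9 (0.55 ± 0.12) were higher.

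Of the other polyamine genes 10 of 16 were called for number 2 (6 higher, 4 lower) and 3 between numbers 3 and 1 (1 higher, 2 lower), near the 64.1% and 23.4% of all genes. The antizyme Oaz1, which binds ornithine decarboxylase and targets it for degradation, was higher in number 2 (log2 fold change 0.41 ± 0.09) and so was Sat1, the acetyltransferase of polyamine breakdown (0.70 ± 0.10). The antizyme inhibitor Azin1 was lower in number 2 (−0.22 ± 0.09, adjusted p = 0.031, DESeq2), and Amd1, which makes the aminopropyl donor for Srm and Sms, was higher (0.31 ± 0.07). Oat, which takes ornithine towards proline and glutamate, was higher in number 2 (0.47 ± 0.08) and lower in number 3 than in number 1 (−0.60 ± 0.09), and of the 6 genes tested in its list all 6 were called for number 2 and 1 between numbers 3 and 1.

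In the tetrahydrobiopterin list 6 of 6 genes were called for number 2 and 1 between numbers 3 and 1, where 64.1% and 23.4% of all genes were. Spr, which completes cofactor synthesis, was lower in number 2 by −2.16 ± 0.17 on the log2 scale, and Gchfr, the feedback regulator of GTP cyclohydrolase, was higher (0.76 ± 0.16). Of the other nitric oxide synthases, Nos1 averaged 2.06 ± 0.71 TPM and Nos3 0.281 ± 0.16 TPM, beside 1.47 TPM for Nos2, and Nos1 was lower in number 2 (−0.86 ± 0.12, adjusted p = 1.95e-11, DESeq2). In number 1 Nos2 was above Nos1, at 2.53 to 3.93 TPM against 2.21 to 2.43 TPM, and in numbers 2 and 3 it was below. The list of other synthases and methylarginine handling had 7 of 7 genes called for number 2 and 1 between numbers 3 and 1, namely Nos3 (−1.55 ± 0.54). Of 10 tested transcription factors known to act on Nos2 or Arg1, 6 were called for number 2 (1 higher, 5 lower), beside 64.1% of all genes. Between numbers 3 and 1 the count was also 6 (3 higher, 3 lower), beside 23.4%. Hif1a (−0.74 ± 0.09) and Stat6 (−0.30 ± 0.08) were lower in number 3 than in number 1, and Nfkb1 (0.32 ± 0.07), Rela (0.33 ± 0.10) and Cebpb (0.40 ± 0.14) were higher. In number 2 Hif1a had 11306 to 12645 normalised counts against 10450 to 13210 in number 1, and Nfkb1 had 1321 to 1415 against 2201 to 2412. A part of these factors in the Nos2 difference was not tested.

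The genes whose pattern over the 12 libraries was most like that of Nos2, among 10867 with a mean of at least 50 normalised counts, were Cnot9 (Pearson r = 0.97), Sept7 (0.97), Tm6sf1 (0.96), Idh1 (0.96) and Lair1 (0.95), on log2(normalised count + 1). Selected for this likeness, they too were highest in number 1, which is therefore no separate result. Lair1, for instance, had 279 to 400 normalised counts in number 1 and 107 to 148 in the others. Among the members, Nos2 was most like Srm (r = 0.77) and least like Odc1 (r = −0.89). Asl was most like Srm (0.79) and Gch1 most like Asl (0.61), while the best match of Sms was Nos2 (0.20), that of Arg2 was Gch1 (0.50) and that of Odc1 was Arg2 (0.05). These values describe 12 libraries that share title numbers.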

How the data were processed

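Polyadenylated RNA of 12 RAW 264.7 libraries was sequenced by the authors with a stranded mRNA kit and quantified per transcript with Salmon against Ensembl cDNA and ncRNA. The deposited values used are expected counts (NumReads), TPM and effective lengths per transcript. The labels name the build GRCh38, a human one, while the transcripts are of mouse. Here the transcripts were matched by identifier to GENCODE vM21 (GRCm38), 98.3% of 118783 with a match, and summed to genes. The unmatched ones held 0.570% to 0.642% of counts.

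Counts were rounded and fitted with DESeq2 1.42.0 in R 4.3.3 with a length offset, keeping the 13923 genes that reached 10 counts in 3 or more libraries. Each miR-EV group, and all 9 libraries together, were tested against ctrl-EVs, and title numbers were tested with the group in the model (Wald and likelihood ratio tests). P-values were adjusted over all genes tested (Benjamini-Hochberg, called under 0.05, no independent filtering). The title numbers pair the libraries: over 18 pairs with the same number, deviations from the group means correlated with r = 0.41 to 0.80 (mean 0.61, 13923 genes). The pairing is taken from the titles, and the fit with the number as a block is given beside the fit without it. The study's methods name DESeq2 but no design formula. Ratios of TPM were compared by two-sided exact permutation tests over libraries. The alternatives were edgeR 4.0.16, no length offset, TMM factors, no filter, a block and leaving out each library. The fits were run on simulated counts in which only a chosen set of genes changed, and the outcome is not given here. Those counts lacked the differences between title numbers that most genes show, so they do not test the fits under such differences.

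The members and pathway lists were chosen with earlier results of these data known. The genes named are the 10 members, pathway genes called in a comparison (as examples), the 5 genes most like Nos2, and cell markers. The examples, the genes sharing sequence with a member (words of 31 bases) and those missing the filter were picked after their values were seen. Depth was 16294611 to 22974853 counts per library, so intervals and the floor of 3 counts cover counting error only.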

Additional observations from a re-analysis of the deposited data

How the results depend on the processing

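The count of members called against ctrl-EVs was 0 of 8 under all alternatives run, including the replicate block with DESeq2 or edgeR, no length offset, TMM factors, no filter (Arg1 and Ass1 included) and leaving out each library. Counts over all genes moved: in the order of the report (single miR-EV groups, then all miR-EVs) DESeq2 called 1, 0, 0 and 0, the replicate block 8, 40, 5 and 164, and edgeR 0 in each with or without the block. The replicate block without the filter, added after the data were seen, called 20, 52, 25 and 107, and without the length offset 4, 23, 6 and 108. Leaving out 1 library gave 0 to 3 calls. The block changed no member's call.

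Between title numbers 6 of 8 members were called (5 to 6 without one library). Number 2 against the others kept 4 (4 to 4). Number 3 against number 1 gave 4, and 2 to 5 without one library: 2 without miR-142-5p-EVs number 3, miR-222-3p-EVs number 1 or miR-222-3p-EVs number 3, where Srm and Sms were lost; all genes called numbered 3258, and 1870 to 3757 without one library. Beyond leaving out a library, Sms was lost with edgeR (adjusted p = 0.062), TMM factors (0.052), no filter (0.075) and Sms-ps added (0.070), Asl was gained with no group term (0.028), and Odc1 in number 2 with no length offset (0.047).

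The Arg1 share kept its direction, though counts in place of TPM lowered the differences to 1.48 to 6.64 points. Its difference from ctrl-EVs without one library was 1.90 to 21.3 points with miR-142-5p-EVs, 1.0 to 7.65 with miR-183-5p-EVs, 6.51 to 18 with miR-222-3p-EVs and 6.35 to 13.0 over all. The log2 ratio of Nos2 to Arg2 turned in sign with several settings, by less than the SD within a group, which includes the differences between title numbers. It ranged without one library from −0.44 to 1.24 with miR-142-5p-EVs, −0.84 to 0.73 with miR-183-5p-EVs, −0.62 to 0.91 with miR-222-3p-EVs and −0.47 to 0.96 over all. With counts in place of TPM it was 0.18 with miR-183-5p-EVs, and with Arg1 plus Arg2 as denominator −0.11 with miR-222-3p-EVs and −0.041 over all. The exact sign-flip test of the pairing gave 0.50, 0.50 and 1.0 with a smallest possible p of 0.25. Its difference between numbers kept its side of the threshold (exact permutation p = 0.0046 from counts, 0.014 with both arginases).

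Of 820 fold changes of members under alternatives, 800 kept their side of the threshold, 16 lost and 4 gained a call. No difference larger than its SE in both fits changed sign, and 66 smaller ones did and are not counted as directions. Low counts limit what can be read from Arg1, Ass1 and Slc7a2, which had 74, 10 and 191 counts in all.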
